A study of Homo sapiens with 4 samples.

Results

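The fibroblast growth factor (FGF) genes followed here were 10 of the 58274 genes in an expression table of human blood differentiation, picked out by gene symbol. They encode 6 FGF proteins (FGF2, FGF4, FGF8, FGF10, FGF13 and FGF17) and the 4 FGF receptors that carry a tyrosine kinase (FGFR1, FGFR2, FGFR3 and FGFR4). In the data, FGF8 and FGF17 were at their highest in APLNR+ mesoderm cells, FGF10 was high in mesoderm cells and in CD31+CD34+ hemogenic endothelial progenitors (HEPs), and FGF2 was highest in pluripotent cells. FGFR1 stayed at 162 to 178 FPKM up to the HEPs and was 9.95-fold lower in CD43+ hematopoietic progenitor cells (HPCs), while FGFR2 and FGFR4 were already lower in the HEPs.

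FGFs of the secreted kind bind a receptor tyrosine kinase together with heparan sulfate, a sugar chain on cell surface proteoglycans, and the paired receptors then signal through the adaptor FRS2 and the RAS-ERK cascade. The pathway keeps human pluripotent stem cells (hPSCs) undifferentiated in culture, and in the embryo it drives cell movement and fate choice at the primitive streak. Its usual target genes include ETV transcription factors and the inhibitors of the Sprouty, Spred and DUSP families, which act back on the cascade.

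The starting cells were the human induced pluripotent stem cell (iPSC) line BC1, from which 3 populations were derived in a chemically defined system. BC1 cells were taken undifferentiated. APLNR+ cells were taken at day 2, after activin A and BMP4, and the medium then held VEGF and bFGF, the protein that FGF2 encodes, until CD31+CD34+ cells were taken at day 5 and CD43+ cells at day 8. So the HEPs and HPCs were cultured with added FGF2 protein, and the transcript levels below do not measure that protein. Undifferentiated cells were kept in mTeSR medium, whose growth factors the paper does not list. Added FGF2 protein is therefore not known to differ between BC1 cells and the later stages. Each population was 1 library of total RNA from this 1 cell line, so no spread between replicates was available, and no difference below has a replicate check or a p-value.

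Levels are in FPKM (fragments scaled by transcript length and by the mapped fragments of the library), a per-length unit in which different genes can be set side by side. Depth was worked out from the step size of low values and came to between 19660000 and 23580000 mapped fragments a library, which allowed an approximate fragment number for each gene. The 95% intervals below come from those fragments and cover counting error only, not variation between cultures. They are exact Poisson for a level, exact Clopper-Pearson for a fold, and a normal approximation for a sum or a share. Where a library held 0 fragments, the fold was set against 3 fragments in that library and is given as a lower bound. A change is called when it reached 1 in size on the log2(FPKM + 1) scale, a scale that understates the change of low genes, among the 17137 genes that reached 1 FPKM in any library. Of the FGF genes, 9 of 10 passed this filter and FGF4 did not. FGF8, FGF10 and FGF17 passed through libraries in which they were high, so the counts of calls describe these genes and support nothing further.

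The populations carried the markers of their names. APLNR was at 0.782 FPKM in BC1 cells and 1073 FPKM in APLNR+ cells. In CD31+CD34+ and CD43+ cells CD34 was at 102 and 42.6 FPKM. PECAM1, which encodes CD31, was at 93.1 and 126 FPKM there, so it was higher in the CD43+ cells. SPN, which encodes CD43, was at 11.7 and 92.4 FPKM. The 3 blood markers (RUNX1, GATA1 and ITGA2B) summed to 134 FPKM in CD31+CD34+ cells and 1309 FPKM in CD43+ cells. The 3 endothelium markers (CDH5, TIE1 and KDR) summed to 1020 and 118 FPKM in the same order. The 3 pluripotency markers (POU5F1, SOX2 and NANOG) summed to 2192, 574, 1.90 and 0.245 FPKM from BC1 to CD43+ cells. The sum in APLNR+ cells was nearly all POU5F1 (573 FPKM). SOX2 went from 172 FPKM in BC1 cells to 0.766 FPKM in APLNR+ cells, and NANOG from 23.6 to 0.957 FPKM. In bulk RNA, fewer cells that express a gene and less of its RNA in each cell cannot be told apart.

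**Figure D1:**
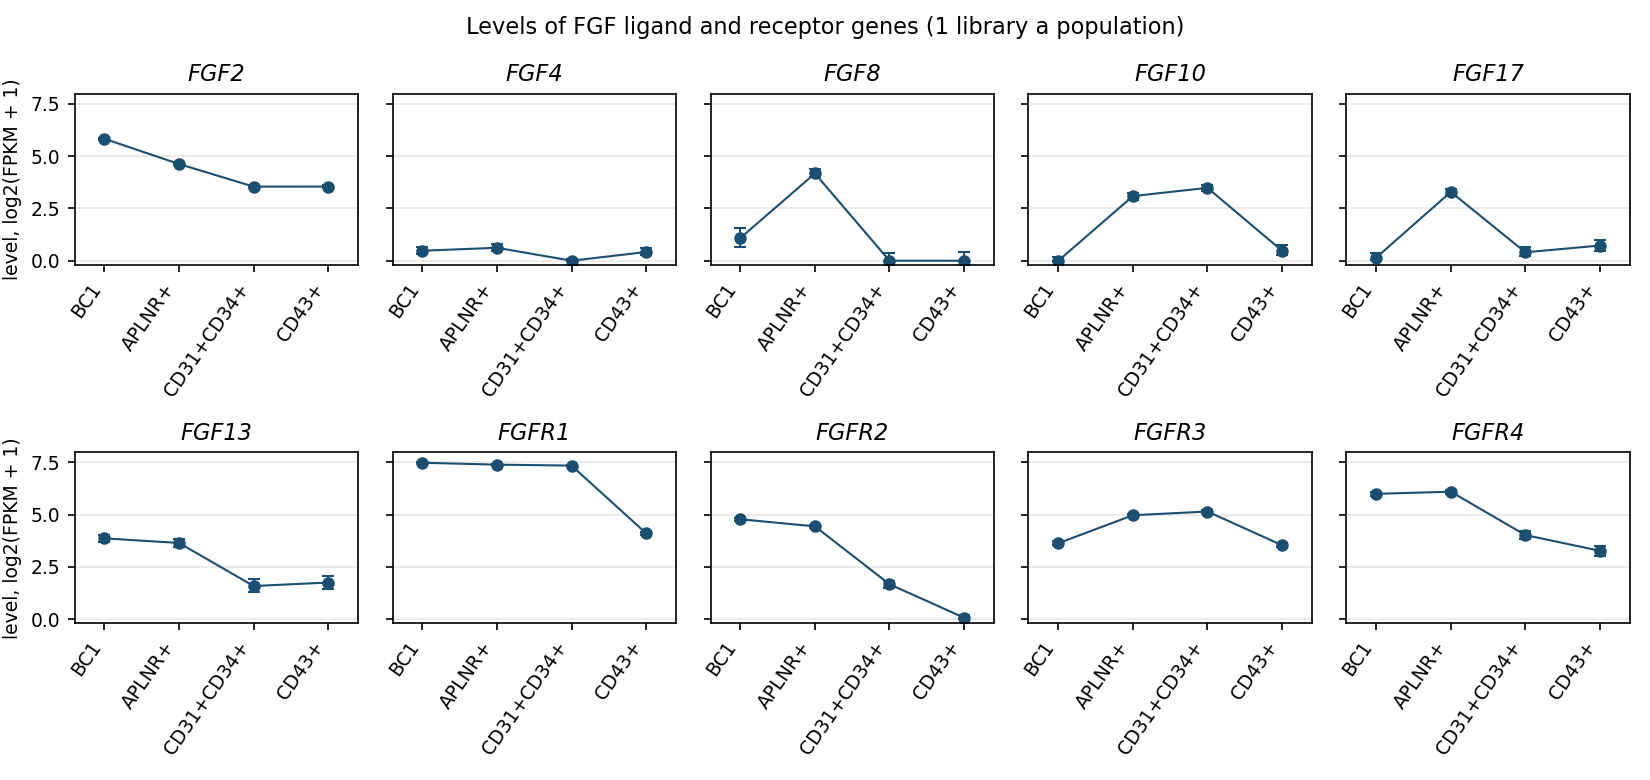
Level of each of the 10 FGF genes on the log2(FPKM + 1) scale (vertical axis) in the 4 populations (horizontal axis), 1 library each. Points are the levels and bars their 95% counting intervals. FGF8 and FGF17 stand highest in APLNR+ cells, and FGFR1 is near 7.35 or above in the first 3 populations and at 4.11 in CD43+ cells.

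FGF2, the ligand used to keep hPSCs in culture, lies at chr4:122826708-122898236 on the plus strand (GRCh38). Its level was 55.9 FPKM in BC1 cells, 23.7 FPKM in APLNR+ cells, 10.7 FPKM in CD31+CD34+ cells and 10.7 FPKM in CD43+ cells. It was thus highest before differentiation, lower at each of the next 2 stages, and at the same level in HEPs and HPCs. From BC1 to APLNR+ cells it was 2.36-fold lower (2.25 to 2.47), and from APLNR+ to CD31+CD34+ cells 2.22-fold lower (2.08 to 2.38). The ratio of CD43+ to CD31+CD34+ cells was 1.002, with an interval from 0.924 to 1.09. NUDT6, on the opposite strand, shares 9540 bases with the FGF2 locus and was at 2.62, 2.56, 5.40 and 4.01 FPKM in the same order. Whether strand was used in counting is not given in the sources used here, so fragments of the overlap cannot be told apart.

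The stretch just before the first FGF2 exon is shown because FGF2 leads the ligand genes of BC1 cells and its promoter has the composition that the receptor promoters printed further on share. It is RefSeq sequence of GRCh38.p14, chr4:122826581-122826707, plus strand, with capitals marking the GC box (GGGCGG, or CCGCCC where it is on the other strand). These 127 bases hold 2 GC boxes and are 78.0% G or C.
FGF2: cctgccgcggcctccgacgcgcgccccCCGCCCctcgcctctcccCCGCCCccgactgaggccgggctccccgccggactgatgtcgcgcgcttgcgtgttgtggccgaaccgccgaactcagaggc

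FGF8 and FGF17 are close relatives that are both known from the primitive streak, where FGF8 is needed for cells to leave it. FGF8 (chr10:101770130-101780369, minus strand) was at 1.12 FPKM in BC1 cells, 17.1 FPKM in APLNR+ cells, and 0 FPKM in both CD31+CD34+ and CD43+ cells. FGF17 (chr8:22042398-22048809, plus strand) was at 0.110 FPKM in BC1 cells, 8.80 FPKM in APLNR+ cells, 0.322 FPKM in CD31+CD34+ cells and 0.655 FPKM in CD43+ cells. Both therefore had 1 high population, the day 2 mesoderm. FGF8 was 15.2-fold higher in APLNR+ than in BC1 cells (8.49 to 29.9), from 12 fragments to 197. It was then at least 69.9-fold lower in CD31+CD34+ cells, where the level that 3 fragments would give is 0.244 FPKM. FGF17 rested on 3 fragments in BC1 cells, and its 80.3-fold higher level in APLNR+ cells has an interval from 28.3 to 408. It was 27.3-fold lower in CD31+CD34+ than in APLNR+ cells (14.8 to 54.7). The 2.03-fold difference between HEPs and HPCs was within counting error (0.911 to 4.61).

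Markers of other embryonic cell types were high in the same library. The 4 primitive streak and mesoderm markers measured (TBXT, MIXL1, EOMES and MESP1) summed to 1.43 FPKM in BC1 cells, 788 FPKM in APLNR+ cells, 2.37 FPKM in CD31+CD34+ cells and 0.934 FPKM in CD43+ cells. The 5 endoderm markers summed to 3.35, 3008, 13.8 and 0.320 FPKM. Of these, CER1, which anterior mesendoderm also expresses, made up 2991 FPKM in APLNR+ cells, SOX17 was at 16.6 FPKM and FOXA2 at 0.588 FPKM, and 2 of 5 reached 1 FPKM. The part of these cells in the FGF8 and FGF17 levels was not tested.

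FGF10, a ligand that mesenchyme sends to neighbouring epithelium in limb and lung, followed another course. Its level was 0 FPKM in BC1 cells, 7.52 FPKM in APLNR+ cells, 10.2 FPKM in CD31+CD34+ cells and 0.395 FPKM in CD43+ cells. It was thus high at the 2 middle stages and low at both ends. The gene (chr5:44303544-44389706, minus strand) was at least 69.2-fold higher in APLNR+ than in BC1 cells, where 3 fragments would be 0.109 FPKM. It was 1.36-fold higher in CD31+CD34+ than in APLNR+ cells (1.14 to 1.61) and 25.9-fold lower in CD43+ than in CD31+CD34+ cells (14.3 to 49.5). FGF10-AS1, the antisense gene at this locus, was at 0 FPKM in every library. The 5 fibroblast or stroma markers (COL1A1, COL3A1, PDGFRA, THY1 and LUM) summed to 438, 115, 537 and 60.7 FPKM from BC1 to CD43+ cells. Most of the sums in BC1 and CD31+CD34+ cells was THY1, at 410 and 340 FPKM. In these 2 populations COL1A1 was at 26.0 and 184 FPKM and COL3A1 at 0.309 and 8.94 FPKM. The part of these markers in the FGF10 level was not tested.

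FGF4, a ligand of pluripotent and early embryonic cells, stayed below 1 FPKM throughout. It was at 0.393 FPKM in BC1 cells, 0.536 FPKM in APLNR+ cells, 0 FPKM in CD31+CD34+ cells and 0.335 FPKM in CD43+ cells, which is 23, 34, 0 and 21 fragments. The first 2 levels could not be told apart by counting (1.37-fold, 0.777 to 2.41), and the level in CD31+CD34+ cells was at least 12.5-fold below that of APLNR+ cells. FGF4 lies at chr11:69771016-69775403 on the minus strand.

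The 5 secreted ligand genes together summed to 57.6 FPKM in BC1 cells, 57.6 FPKM in APLNR+ cells, 21.2 FPKM in CD31+CD34+ cells and 12.1 FPKM in CD43+ cells. The equal sums of the first 2 populations were made of different genes. FGF2 was 97.2% of the sum in BC1 cells and 41.1% in APLNR+ cells, where FGF8 took 29.6%, FGF17 15.3% and FGF10 13.0%. In CD31+CD34+ cells the sum was FGF2 (50.3%) and FGF10 (48.2%) almost alone. In CD43+ cells FGF2 again led, with 88.5%.

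**Figure D2:**
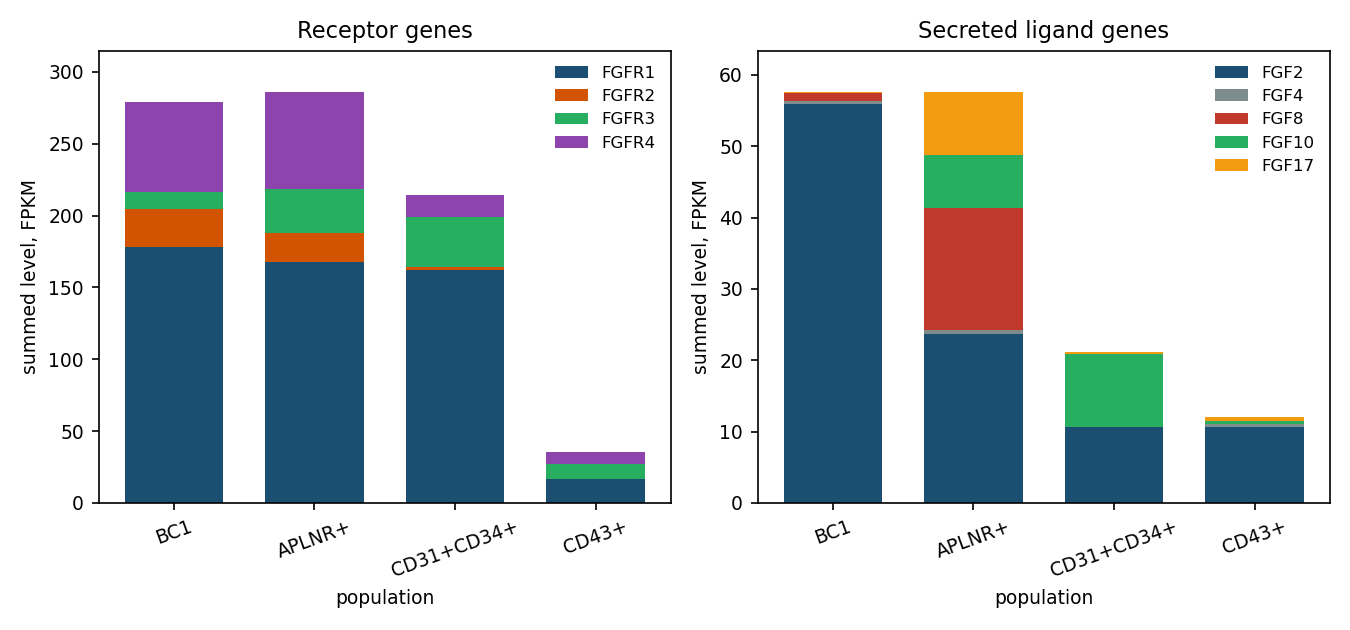
Summed FPKM (vertical axes, linear, from 0) of the 4 receptor genes (left) and of the 5 secreted ligand genes (right) in the 4 populations (horizontal axes), stacked by gene. The receptor bars reach 279, 286, 214 and 35.6 FPKM, and the ligand bars 57.6, 57.6, 21.2 and 12.1 FPKM with a change of genes between the first 2.

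FGF13 differs from the other FGF genes here in kind, since its product stays inside the cell, binds voltage gated sodium channels and microtubules, and does not act as a classic receptor ligand. It lies at chrX:138614731-139222777 on the minus strand. Its level was 13.6 FPKM in BC1 cells, 11.5 FPKM in APLNR+ cells, 2.01 FPKM in CD31+CD34+ cells and 2.38 FPKM in CD43+ cells. The 4 levels fell into a high pair and a low pair. Within each pair the difference was inside counting error, at 1.18-fold (0.973 to 1.43) between the first and 1.18-fold (0.747 to 1.88) between the last. From APLNR+ to CD31+CD34+ cells FGF13 was 5.75-fold lower (4.07 to 8.32). FGF13-AS1, which overlaps it on the opposite strand, was at 2.67, 0.715, 0 and 0 FPKM. Sodium channel subunit genes, the known partners of its product, were low, and 8 of 13 passed the filter.

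Among the receptors, FGFR1 led in every population. FGFR1 is the main FGF receptor of pluripotent and mesodermal cells and lies at chr8:38411138-38468834 on the minus strand. Its level was 178 FPKM in BC1 cells, 167 FPKM in APLNR+ cells, 162 FPKM in CD31+CD34+ cells and 16.3 FPKM in CD43+ cells. So 3 populations lay close together and CD43+ cells stood apart. The first differences were small, 1.07-fold lower (1.04 to 1.09) and then 1.03-fold lower (1.01 to 1.06), both short of a called change. CD43+ cells were 9.95-fold lower than CD31+CD34+ cells (9.35 to 10.6). FGFR1 was above 96.8%, 96.2%, 96.2% and 61.6% of the genes detected in the 4 libraries in turn. LETM2, on the opposite strand, was between 0.712 and 1.25 FPKM.

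FGFR2, whose splice forms bind ligands such as FGF10 and FGF7 in epithelium and other ligands in mesenchyme, lies at chr10:121478334-121598458 on the minus strand. It was at 26.5 FPKM in BC1 cells, 20.8 FPKM in APLNR+ cells, 2.19 FPKM in CD31+CD34+ cells and 0.0511 FPKM in CD43+ cells. The level was lower at every stage, and the order held beyond counting error. The steps were 1.28-fold (1.18 to 1.38), 9.47-fold (7.89 to 11.4) and 42.9-fold (13.7 to 200.2), the last resting on 3 fragments in CD43+ cells. From BC1 to CD43+ cells the ratio was 519-fold, with an interval from 168 to 2388.

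FGFR3, best known for holding back growth of cartilage, lies at chr4:1793307-1808872 on the plus strand, and it was the single receptor called higher at any step. It was at 11.4 FPKM in BC1 cells, 30.4 FPKM in APLNR+ cells, 34.6 FPKM in CD31+CD34+ cells and 10.6 FPKM in CD43+ cells. The middle populations were high and the end populations low, a pattern that FGF10 had too. FGFR3 was 2.66-fold higher in APLNR+ than in BC1 cells (2.46 to 2.87), 1.14-fold higher again in CD31+CD34+ cells (1.08 to 1.20), and 3.25-fold lower in CD43+ cells (3.02 to 3.50). BC1 and CD43+ cells could not be told apart by counting (1.07-fold, 0.978 to 1.18).

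FGFR4, which in liver pairs with beta-Klotho as the receptor of FGF19, lies at chr5:177086886-177098144 on the plus strand. It was at 63.0 FPKM in BC1 cells, 67.6 FPKM in APLNR+ cells, 15.3 FPKM in CD31+CD34+ cells and 8.66 FPKM in CD43+ cells. The first 2 levels were alike within counting error (1.07-fold higher, 0.971 to 1.19). FGFR4 was then 4.42-fold lower in CD31+CD34+ cells (3.79 to 5.18) and 1.77-fold lower again in CD43+ cells (1.39 to 2.26), the last short of a called change.

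The 4 receptor genes summed to 279 FPKM in BC1 cells (273 to 285), 286 FPKM in APLNR+ cells (280 to 292), 214 FPKM in CD31+CD34+ cells (210 to 218) and 35.6 FPKM in CD43+ cells (33.6 to 37.7). HPCs thus held the lowest summed receptor level, 6.01-fold below HEPs and 7.83-fold below BC1 cells. The make-up changed as well. FGFR1 was 63.9% of the sum in BC1 cells, 58.5% in APLNR+ cells, 75.7% in CD31+CD34+ cells and 45.7% in CD43+ cells, where its interval was 42.9% to 48.4%. FGFR3 made up 4.10%, 10.6%, 16.1% and 29.9% in the same order, and FGFR2 went from 9.49% to 0.143%. FGFR4 was 22.6%, 23.6%, 7.14% and 24.3%. So in CD43+ cells a small sum was shared by FGFR1, FGFR3 and FGFR4, whereas in CD31+CD34+ cells a large sum was mostly FGFR1. FPKM of a whole gene does not separate the splice forms that set which ligand a receptor binds.

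The promoters of 3 receptor genes are printed because these receptors took different courses: FGFR2 was lower at every stage, FGFR4 was lower from the CD31+CD34+ stage on, and FGFR3 was highest at the middle stages. All are RefSeq sequences of GRCh38.p14 that stop before the first exon, written along the gene's own strand, with GC boxes in capitals. FGFR2 is chr10:121598459-121598694 on the minus strand (236 bases), FGFR3 chr4:1793043-1793292 on the plus strand (250 bases) and FGFR4 chr5:177086665-177086885 on the plus strand (221 bases).
FGFR2: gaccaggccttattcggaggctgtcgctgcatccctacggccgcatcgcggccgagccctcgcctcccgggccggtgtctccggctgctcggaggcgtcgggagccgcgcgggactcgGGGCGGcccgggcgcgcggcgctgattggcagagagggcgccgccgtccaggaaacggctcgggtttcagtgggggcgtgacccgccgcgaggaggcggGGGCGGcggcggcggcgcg
FGFR3: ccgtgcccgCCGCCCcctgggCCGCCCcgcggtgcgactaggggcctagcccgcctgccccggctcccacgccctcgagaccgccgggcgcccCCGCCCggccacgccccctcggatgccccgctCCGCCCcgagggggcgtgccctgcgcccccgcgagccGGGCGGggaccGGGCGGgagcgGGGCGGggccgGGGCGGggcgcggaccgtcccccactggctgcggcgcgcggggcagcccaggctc
FGFR4: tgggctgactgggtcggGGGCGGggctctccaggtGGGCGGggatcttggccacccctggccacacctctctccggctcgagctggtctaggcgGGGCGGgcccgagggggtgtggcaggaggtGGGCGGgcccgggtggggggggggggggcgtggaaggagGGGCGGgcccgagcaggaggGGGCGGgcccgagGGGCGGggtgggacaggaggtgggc

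These stretches hold 2, 8 and 7 GC boxes. Windows of 300 bases around a start (250 before and 50 after) were used for 6 of the 10 genes, FGF2, FGF10, FGF13, FGFR2, FGFR3 and FGFR4, and not for FGF4, FGF8, FGF17 and FGFR1. Some genes have several starts, so there were 12 windows, and the most upstream window of each gene was set against the most upstream windows of all 27326 genes. Searched on both strands, the GC box was in 4 of the 6 first windows and in 44.5% of those of all genes. The 2 without it were FGF10 and FGF13. The 6 first windows were 62.3% (FGF10) to 86.3% (FGFR3) G or C, where the median of all first windows was 58.3%. The further windows of FGFR2 and FGFR4 and that of FGF13 lay below that median, the lowest being FGF13 with 37.7%. In first windows TATAAA was in 1 of 6 (FGF13) and 12.02% of all, and CCAAT in 1 of 6 (FGFR2) and 35.7% of all. The E-box letters CACGTG were in 0 of 6 and 7.41% of all, and in the further window of FGFR4. An ETS motif with the letters CCGGAAG was in 0 of 6, in 0 of the 12 windows and in 10.6% of all first windows. A T-box motif, TCACACC, was also in 0 of the 12 windows and in 3.42% of all first windows. AGATAA, the motif of the GATA factors, was in 0 of 6 and 10.5% of all, and in a further window each of FGFR2 and FGFR4. A match is a description of letters and not a bound site.

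Counted step by step, 4 FGF genes were called higher from BC1 to APLNR+ cells (FGF8, FGF10, FGF17 and FGFR3), against a background of 9.15% of all genes called higher. One, FGF2, was called lower (1 of 9), against 9.32%. From APLNR+ to CD31+CD34+ cells 6 were lower (FGF2, FGF8, FGF13, FGF17, FGFR2 and FGFR4), where 11.4% of all genes were lower, and 0 were higher, where 13.0% were. From CD31+CD34+ to CD43+ cells 4 were lower (FGF10, FGFR1, FGFR2 and FGFR3), against 13.5%, and 0 were higher, against 7.63%. Between the ends, BC1 and CD43+ cells, 6 were lower (FGF2, FGF8, FGF13, FGFR1, FGFR2 and FGFR4), against 18.9%, and 0 higher, against 15.2%. The median change of the 9 genes was 0.10, -2.06 and -0.75 over the 3 steps, beside 0.00, 0.01 and -0.08 for all genes. Adjacent steps share a library, so a high value in it enters both.

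In size, the changes of FGF17 (3.14), FGF10 (3.09) and FGF8 (3.09) at the first step were exceeded by 1.16%, 1.19% and 1.20% of all genes. At the second step the change of FGF8 (-4.18) was among the lowest 0.403%. FGF17 (-2.89) was among the lowest 1.27% and FGFR2 (-2.77) among the lowest 1.41%. At the third step FGFR1 (-3.24) and FGF10 (-3.01) were among the lowest 1.17% and 1.50%. The changes of these 5 genes thus reached the tails of the distribution, while FGFR1 at the first 2 steps (-0.09 and -0.05) lay near its middle. FGF10 and FGF17 passed the filter only through libraries in which they were high. The high APLNR+ values of FGF8 and FGF17 enter both of their steps. These ranks therefore describe the genes and support nothing further.

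**Figure D3:**
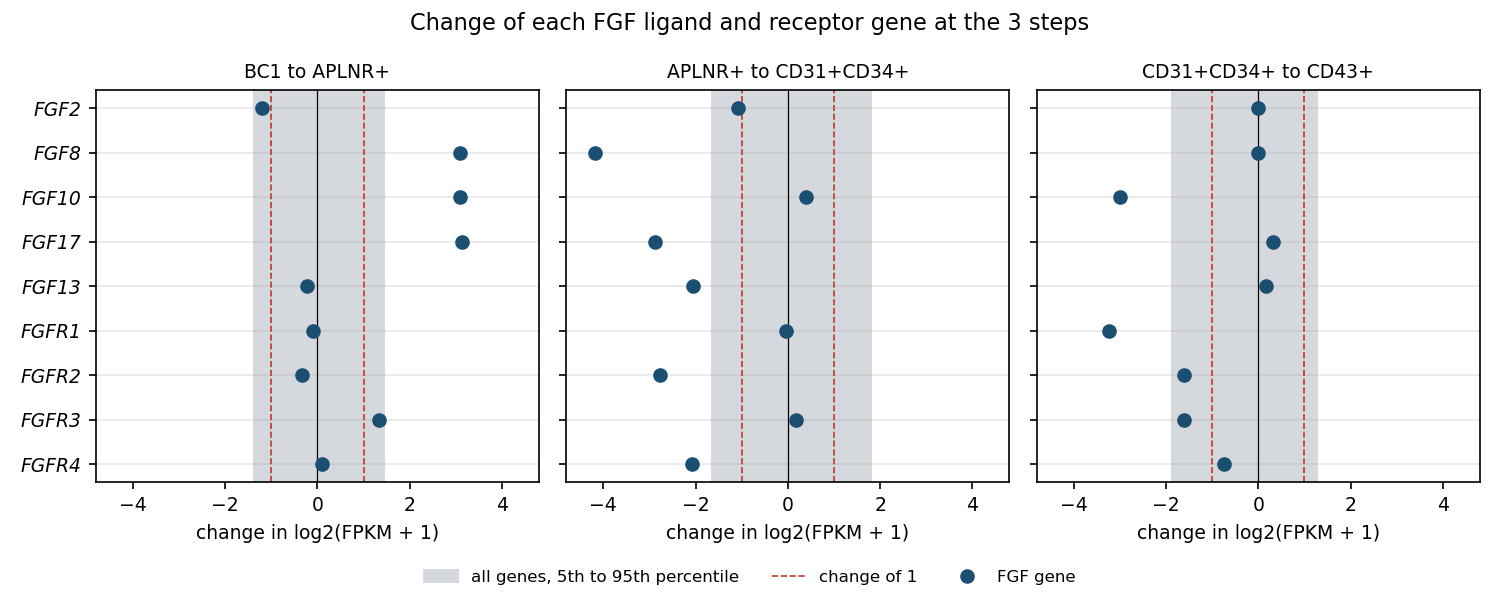
Change of 9 FGF genes in log2(FPKM + 1) (horizontal axes) at the 3 steps, 1 panel each, with genes on the vertical axis. The grey band spans the 5th to 95th percentile of all 17137 genes and the dashed lines mark a change of 1. FGF8, FGF10 and FGF17 lie right of the band at the first step, FGF8, FGF17, FGF13, FGFR2 and FGFR4 left of it at the second, and FGFR1 and FGF10 left of it at the third.

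Set among 36 receptor tyrosine kinase genes, FGFR1 had the highest level in BC1 cells and in APLNR+ cells. It ranked 4 in CD31+CD34+ cells, after the endothelial receptor genes KDR, TIE1 and FLT4, and 5 in CD43+ cells, after TIE1, KDR, IGF1R and FLT1. The 4 FGF receptors were 38.7%, 40.9%, 13.6% and 14.2% of the summed FPKM of all 36. The lower share in CD31+CD34+ cells went with a higher sum of the other kinases (414 FPKM at day 2 and 1360 FPKM at day 5) as well as a lower FGF receptor sum. Of the 32 other kinases, 28 passed the filter. At the last step 15 of these were called lower and 1 higher, beside 13.5% and 7.63% of all genes, with a median change of -1.38 beside -0.08.

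The other 16 genes of the family that encode FGF proteins were mostly off. Of them, 11 stayed below 1 FPKM in every library, and 3 reached 5 FPKM somewhere. FGF19, the gut hormone that signals to liver through FGFR4, was at 6.08, 1.04, 0.117 and 0.0214 FPKM from BC1 to CD43+ cells, so it was highest in BC1 cells. FGF11 and FGF12, intracellular like FGF13, took opposite courses, FGF11 at 4.83, 3.04, 7.90 and 15.1 FPKM and FGF12 at 5.04, 6.14, 1.93 and 0.708 FPKM. Counting all 22 genes that encode FGF proteins, 7 were at 1 FPKM or more in BC1 cells, 9 in APLNR+ cells, 5 in CD31+CD34+ cells and 4 in CD43+ cells. These counts include intracellular kinds. The genes in CD31+CD34+ cells were FGF2 and FGF10 with the intracellular FGF11, FGF12 and FGF13. Those in CD43+ cells were FGF2 and FGF23 with the intracellular FGF11 and FGF13.

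Coreceptors and binding proteins were followed as a list of 12 genes, of which 7 passed the filter. At the first step 5 were called higher and 2 lower, beside 9.15% and 9.32% of all genes, with a median change of 1.43 beside 0.00. NCAM1, an adhesion molecule that can bind FGFR1, was at 2.11 FPKM in BC1 cells, 70.9 FPKM in APLNR+ cells, 11.4 FPKM in CD31+CD34+ cells and 1.30 FPKM in CD43+ cells. FGFRL1, a receptor without a kinase that binds ligand, was at 10.4, 41.6, 12 and 1.99 FPKM, and CDH2, N-cadherin, at 12.8, 45.3, 10.003 and 0.682 FPKM. These 3 genes were highest in APLNR+ cells, the population in which FGF8 and FGF17 were highest. FGFBP3, whose product releases FGFs from the matrix, had the opposite course, with 56.9, 3.61, 81.4 and 20.1 FPKM. At the second step 2 were higher and 4 lower, beside 13.0% and 11.4% of all genes, and at the third all 7 that passed were lower, beside 13.5%, with a median change of -2.12 beside -0.08. FLRT2, from a family of membrane proteins that bind FGF receptors, was 14.9 FPKM in CD31+CD34+ cells and 0.603 FPKM in CD43+ cells.

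Heparan sulfate carriers and enzymes, without which most secreted FGFs bind their receptors poorly, were a list of 31 genes with 27 past the filter. From BC1 to APLNR+ cells 9 were called higher and 4 lower, beside 9.15% and 9.32% of all genes. HS3ST3A1 and HS3ST1, which add a sulfate at a defined position of the chain, were at 3.22 and 0.209 FPKM in BC1 cells and 137 and 28.97 FPKM in APLNR+ cells. SULF2, which removes sulfates and so alters ligand binding, was at 22.5, 194, 16.9 and 1.35 FPKM from BC1 to CD43+ cells. These 3 genes were among the 13 of 27 (48.1%) that were highest in the mesoderm population, where 22.7% of all genes were. Others of the same kinds were not highest there. The second sulfatase gene, SULF1, was at 6.80, 1.964, 4.37 and 2.02 FPKM. The sulfotransferase genes HS2ST1 (16.4 FPKM) and NDST2 (17.9 FPKM) were highest in CD31+CD34+ cells. For HS2ST1 the level in CD43+ cells (16.2 FPKM) could not be told apart from that by counting (1.01-fold, 0.889 to 1.15). The proteoglycan genes SDC2 (97.8, 42.3, 3.56 and 2.68 FPKM) and GPC3 (62.5, 9.23, 7.42 and 1.60 FPKM) were highest in BC1 cells, and HSPG2, perlecan of the basement membrane, in CD31+CD34+ cells (121 FPKM). At the second step 3 were higher and 12 lower, beside 13.0% and 11.4% of all genes. At the third 0 were higher and 13 lower, beside 7.63% and 13.5%, with a median change of -0.93. In CD43+ cells 22 of the 27 (81.5%) had their lowest level, where 31.4% of all genes did.

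**Figure D4:**
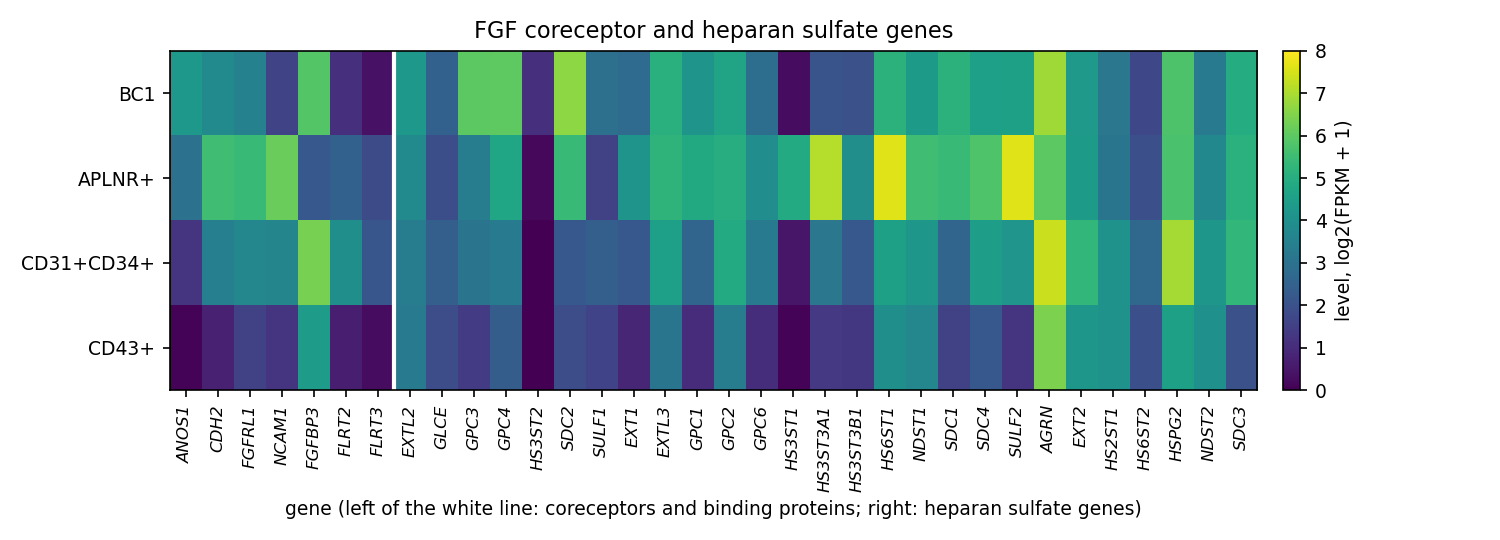
Level on the log2(FPKM + 1) scale (colour) of the 7 coreceptor and binding protein genes (left of the white line) and the 27 heparan sulfate genes (right) that passed the filter, in the 4 populations (rows). Genes are ordered by the population of their highest level. The CD43+ row is the darkest, holding the lowest level of 6 of 7 and of 22 of 27 genes.

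All 24 adaptor and ERK cascade genes, the signal carriers inside the cell, passed the filter. At the first step 5 of 24 (20.8%) were called higher and 0 lower, beside 9.15% and 9.32% of all genes. At the second step 3 were higher and 2 lower, beside 13.0% and 11.4%, which is near the share of all genes, and at the third 1 and 1, beside 7.63% and 13.5%. The scaffold gene KSR1 was at 55.7, 191, 147 and 366 FPKM, and the adaptor genes GRB2 at 79.0, 110, 108 and 190 FPKM and SHC1 at 203, 184, 570 and 363 FPKM. CD43+ cells held these 3 transcripts above the BC1 level. Others of the list were below it, with HRAS at 42.3 FPKM in BC1 and 22.0 FPKM in CD43+ cells, MAP2K1, an ERK kinase, at 50.3 and 28.0 FPKM, and PLCG1, a phospholipase that the receptors activate, at 67.5 and 51.9 FPKM. The other receptor tyrosine kinases and cytokine receptors use the same proteins.

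The feedback inhibitors are a list of 11 genes, 10 of which passed. At the first step 4 were called higher and 1 lower, beside 9.15% and 9.32% of all genes. The single lower gene was DUSP6, a phosphatase that acts on ERK, at 71.1 FPKM in BC1 cells, 6.64 FPKM in APLNR+ cells, 39.7 FPKM in CD31+CD34+ cells and 8.45 FPKM in CD43+ cells. DUSP5, the nuclear counterpart, went the other way at that step (13.4, 61.4, 31.2 and 12.5 FPKM). IL17RD, a membrane inhibitor also called SEF, was at 17.0, 38.7, 3.0 and 0.304 FPKM. SPRY1 was at 19.7, 20.3, 136 and 30.1 FPKM and SPRY4 at 34.1, 60.1, 22.6 and 0.575 FPKM, so these 2 Sprouty genes differed in where they were highest. At the last step 9 of the 10 were lower and 0 higher, beside 13.5% and 7.63% of all genes, with a median change of -1.67. In CD43+ cells 8 of 10 had their lowest level, where 31.4% of all genes did.

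The 12 ETV and immediate early genes split at that last step, with 4 called higher and 6 lower, beside 7.63% and 13.5% of all genes. ETV4, an ETS factor long used as a readout of FGF signalling, was at 116 FPKM in BC1 cells, 62.6 FPKM in APLNR+ cells, 75.7 FPKM in CD31+CD34+ cells and 1.73 FPKM in CD43+ cells. ETV5 (12.6, 11.5, 19.99 and 1.01 FPKM) and ETV1 (23.0, 5.21, 7.57 and 0.663 FPKM) were also lowest in CD43+ cells. The immediate early genes FOS (5.52, 9.47, 27.9 and 455 FPKM), EGR1 (2.21, 11.5, 34.6 and 239 FPKM) and JUNB (2.80, 12.1, 36.0 and 134 FPKM), which many stimuli and stresses switch on, were highest there. So the 3 ETV genes were lowest in the library in which the 4 receptor genes were lowest, as were 31.4% of all genes. FGFR3 was there within counting error of BC1 cells. The other genes of the list went both ways. FOS, EGR1, JUNB, MYC (52.9, 86.5, 57.9 and 141 FPKM) and IER2 (97.3, 45.7, 231 and 260 FPKM) were highest in CD43+ cells. PHLDA1 (6.10, 12.3, 60.4 and 3.30 FPKM), IER3 (2.27, 43.2, 2.15 and 0.0964 FPKM) and CCND1 (97.2, 138, 93.0 and 14.2 FPKM) were lowest there. At the second step 6 genes of this list were higher and 1 lower, beside 13.0% and 11.4% of all genes, and at the first 3 and 3, beside 9.15% and 9.32%.

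**Figure D5:**
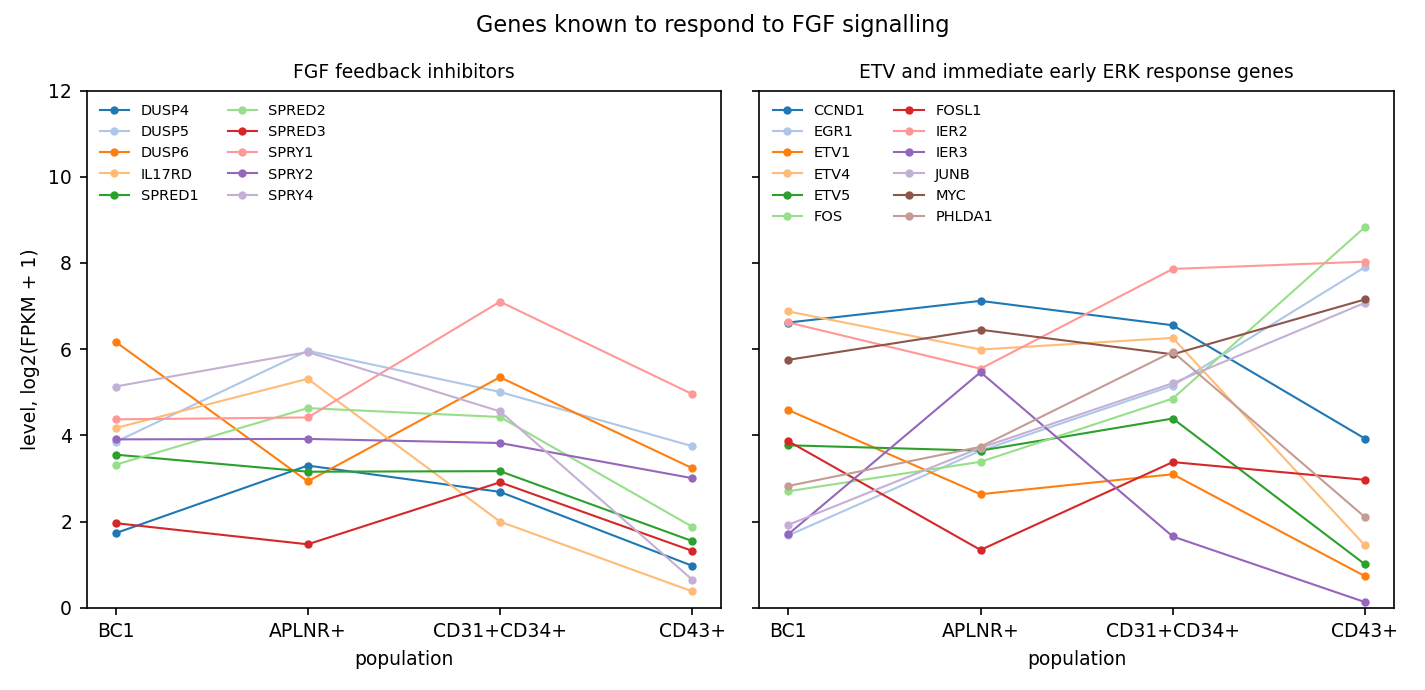
Levels on the log2(FPKM + 1) scale (vertical axis) of the 10 feedback inhibitor genes (left) and the 12 ETV and immediate early genes (right) that passed the filter, across the 4 populations (horizontal axis). In CD43+ cells 8 of the 10 inhibitors are at their lowest, and ETV4, ETV5 and ETV1 are at 1.73 FPKM or less. PHLDA1, IER3 and CCND1 are also at their lowest there, and FOS, EGR1, JUNB, MYC and IER2 at their highest.

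Regulators of receptor splicing were followed as 10 genes, 9 of which passed. ESRP1 and ESRP2, which favour the epithelial form of FGFR2, were at 37.7 and 24.6 FPKM in BC1 cells, 6.66 and 8.64 FPKM in APLNR+ cells, 0.466 and 0.503 FPKM in CD31+CD34+ cells, and 0.0964 and 1.15 FPKM in CD43+ cells. RBFOX3 was at 132, 78.4, 21.4 and 0.246 FPKM, whereas MBNL1 was at 2.56, 1.01, 8.88 and 27.7 FPKM. The ESRP genes were thus already far lower in APLNR+ cells, where FGFR2 itself was still at 20.8 FPKM. Which receptor forms the cells made was not analysed here.

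Genes whose course over the 4 libraries was nearest to that of an FGF gene were sought among 8932 protein-coding genes, by the root mean squared difference of centred log2(FPKM + 1) values. For FGF8 the nearest were RASSF10 (0.159), SEMA5A (0.245) and HRASLS5 (0.284). RASSF10 was at 1.23 FPKM in BC1 cells, 23.7 FPKM in APLNR+ cells, 0.132 FPKM in CD31+CD34+ cells and 0.0412 FPKM in CD43+ cells. For FGF10 they were DOK4 (0.220), CDC42EP1 (0.293) and ITGA9 (0.304), and for FGF2 C9orf116 (0.110), PEBP1 (0.124) and FAM169A (0.135). For FGF13 they were CBSL (0.0705), SPHK2 (0.114) and TLE1 (0.128). CBSL is a near copy of CBS, and its value is uncertain for that. For the receptors they were SNX7 (0.0654), FARP1 (0.105) and LRP1 (0.116) for FGFR1, EEF1A2 (0.156), ROR1 (0.210) and GJA1 (0.219) for FGFR2, MEIS3 (0.0359), RHOBTB2 (0.0480) and CENPA (0.0642) for FGFR3, and CYB5R2 (0.115), ANTXR1 (0.116) and GPT2 (0.143) for FGFR4. FGF17 and FGF4 stayed under the 10 FPKM needed. Between the FGF genes themselves the closest pairs were FGFR4 with FGF13 (0.379), FGF13 with FGF2 (0.407) and FGFR4 with FGF2 (0.643), then FGF17 with FGF8 (0.746), and the farthest pair was FGFR2 with FGF10 (2.47). With 4 points a course is matched by many genes, so these are descriptions.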

How the data were processed

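RNA was measured by sequencing in 4 libraries, 1 for each population, made with an Illumina TruSeq RNA kit. The authors deposited FPKM values per gene. The submitters' processing notes name hg19, BWA, Bowtie and RSEM without roles or versions, and whether strand was used is not given in the sources used here. Of the 58274 identifiers, 58011 (99.5%) are in GENCODE release 29, whose positions are on GRCh38, so loci are given on that build. Identifiers on more than 1 row (90) were summed.

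Mapped fragments were recovered from low FPKM values of genes with 1 transcript, of which 92.2% to 94.3% came out within 0.1 of a whole number, after the procedure was tested on simulated data. Fragments of a gene used the middle length among the gene's coding transcripts, which is short for FGFR4 (838 bases) and so widens its intervals. With 1 library a group there was no test. Changes were taken on log2(FPKM + 1) and called at 1, among genes that reached 1 FPKM in any library. From each of 9 pathway lists, genes called at a step and reaching 5 FPKM there in either library were eligible for naming, at most 4 a step, those of largest change, and their levels in the other libraries are given with them. SOX17, CER1, FOXA2, THY1, COL1A1 and COL3A1 are marker genes. The levels of the sodium channel list are not reported here. The FGF genes, a family named by symbol with no threshold on their values, and the lists were chosen with earlier results of these data known. SULF1, HS2ST1, NDST2, MAP2K1, MYC and CCND1 are outside the naming rule and were chosen after their values were seen. Alternatives were the pseudocount, the filter, the call threshold, library scaling, the handling of rows, transcript length and the members of each sum. Python 3.11.15, pandas 2.3.3, numpy 2.4.6, scipy 1.17.1 and matplotlib 3.10.9 were used.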

Additional observations from a re-analysis of the deposited data

How the results depend on the processing

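No comparison has replicates, so culture variation is unknown, and intervals cover counting only. No paired analysis was possible because each group has 1 library. The sign of every called FGF gene change was the same under each alternative run. A threshold of 2 left 0 lower calls from BC1 to APLNR+ cells and 2 lower calls from CD31+CD34+ to CD43+ cells, and over the 9 lists together it left 10 higher and 6 lower, 16 and 16, and 3 and 28 at the 3 steps, and 8 and 28 from BC1 to CD43+ cells. FGF2 and FGFR3 at the first step, FGF2 at the second, FGFR2 and FGFR3 at the third, and FGF8 from BC1 to CD43+ cells lost their call there, by construction. A pseudocount of 0.1 gave 2 higher calls from BC1 to CD43+ cells, FGF10 and FGF17. The share of all genes called was not worked out for either alternative, so these counts cannot be set against all genes. The receptor sum in CD31+CD34+ cells was 222 FPKM scaled by library sums and 203 FPKM by size factors. With FGF13 the ligand sums were 71.2, 69.2, 23.2 and 14.4 FPKM, and with FGFRL1 the FGFR1 share was 61.6%, 51.1% and 71.7% in the first 3 populations. With the longest transcript, intervals for FGF13 (1.18-fold at the first and the last step) and FGFR4 (1.07-fold at the first) left out no change. The other alternatives moved no call of an FGF gene. Scaling moved the median of all genes at the last step from -0.08 to -0.17 and 0.00.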
